A study of Mus musculus with 4 samples.

Results

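The genes of 10 proteins, most of them known mainly as products of the liver, were followed across the cell types of mouse endosteal bone marrow. They were haptoglobin (Hp), transferrin (Trf), ceruloplasmin (Cp), kininogen 1 and 2 (Kng1, Kng2), angiotensinogen (Agt), serpins Serpina3g, Serpina3n and Serpina1b, and orosomucoid 1 (Orm1). They are 10 of the 27999 genes listed in the libraries of mice aged 1, 1.5 and 3 months and of the 31054 listed at 16 months, and all 10 were listed in every library. The genes were picked for their levels in these same libraries, so where each gene was highest is a description and was not tested.

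All libraries came from male Col2-Cre Rosa26 lsl-tdTomato (Col2:Td) mice of the strain label B6SJL/F1, in which Cre driven by a collagen II promoter turns on the red reporter Td in chondrocytes, osteoblasts, osteocytes and marrow stromal cells. Marrow cells released by protease digestion of metaphyseal bone were sorted for the brightest Td signal and sequenced as single cells in droplets. The ages were 1, 1.5, 3 and 16 months, with 2, 3, 3 and 3 mice pooled before loading, no treatment and no second genotype. Each age is thus 1 library without a replicate, no difference between ages was tested, and the intervals given below cover counting error only.

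Of 27907 barcodes in the 4 libraries, 24084 were kept, and 12589 of these fell in the mesenchymal classes named below. The share removed was 1.29%, 5.08%, 7.44% and 33.4%, from the youngest to the oldest library. Cells were clustered and classes were named from marker genes, with the suffix "-like": AD-like for adipocyte-lineage stromal cells, EMP-like and LMP-like for early and late mesenchymal progenitors, OB-like for osteoblasts, Ocy-like for osteocytes and CH-like for chondrocytes. The AD-like class held 197, 1156, 417 and 3726 cells at 1, 1.5, 3 and 16 months, with a median of 6918, 5817, 3935 and 9761 unique molecular identifiers (UMIs) per cell. Adiponectin (Adipoq), which defines this class, stood at 1877, 3119, 1603 and 1536 counts per 1e6 UMIs of the class (CPM) in AD-like cells. In the younger libraries it was at most at 111.7 CPM in any other named mesenchymal class. The 16-month EMP-like cells went against this separation, with Adipoq at 602 CPM. A further 2841 kept cells lay in clusters that met no naming rule and were not counted as mesenchymal. Some of these clusters were led by genes such as Kcnk2, Limch1, Spp1 and Dmp1. They are outside the comparisons with the next mesenchymal class and the 2-fold call given below. The sort also held many cells without mesenchymal markers, of which neutrophil-like cells made up 22.8%, 2.37%, 11.6% and 4.61% of the kept cells. From 30 to 61 cell barcodes were shared by pairs of the younger libraries, and 1 or 2 by any of them with the 16-month library. Because the 16-month table also lists another set of genes, age, batch and counting cannot be told apart.

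Plasma proteins of this kind are made mainly by hepatocytes, whereas Serpina3g is an intracellular inhibitor. Several of the plasma proteins, haptoglobin, orosomucoid, ceruloplasmin and some serpins among them, belong to the acute-phase response. In it interleukin 6 acts through Stat3 and C/EBP factors on their promoters. Haptoglobin, transferrin and ceruloplasmin handle free hemoglobin, iron and copper, kininogens and angiotensinogen are precursors of vasoactive peptides, and serpins trap proteases. Kng1 and Kng2 are close copies of each other, as are the members of the Serpina1 and Serpina3 families and Orm1 to its neighbours, and how the counting treated reads that match several copies is not given in the sources used here, so the values of these genes are uncertain to that extent.

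The 250 bases before the annotated start are shown for 3 genes that were highest in AD-like cells and for Serpina1b, which was highest in CH-like cells. The sequences are from RefSeq on GRCm38.p6, are written in the direction of transcription, and lie at chr16:23029102-23029351 (minus strand), chr8:124569707-124569956 (minus strand), chr12:104235897-104236146 (plus strand) and chr12:103738190-103738439 (minus strand). Capitals mark matches on either strand to a C/EBP motif (TTGCNNAA), a STAT motif (TTCNNNGAA) and a TATA motif (TATAAA).
Kng2: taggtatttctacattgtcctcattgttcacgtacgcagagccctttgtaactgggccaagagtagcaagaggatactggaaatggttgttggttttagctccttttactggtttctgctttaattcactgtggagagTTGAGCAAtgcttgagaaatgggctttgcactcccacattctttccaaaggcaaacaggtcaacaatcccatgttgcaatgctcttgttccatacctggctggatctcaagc
Agt: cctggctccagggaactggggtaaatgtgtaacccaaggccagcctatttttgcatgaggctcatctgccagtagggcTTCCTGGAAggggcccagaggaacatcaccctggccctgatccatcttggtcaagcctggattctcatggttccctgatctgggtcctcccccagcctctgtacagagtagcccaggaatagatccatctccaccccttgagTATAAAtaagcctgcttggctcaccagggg
Serpina3g: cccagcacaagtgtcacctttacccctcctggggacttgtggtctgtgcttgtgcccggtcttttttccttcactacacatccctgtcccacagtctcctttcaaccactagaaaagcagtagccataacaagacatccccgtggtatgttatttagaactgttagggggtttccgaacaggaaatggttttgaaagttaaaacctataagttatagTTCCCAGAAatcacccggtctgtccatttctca
Serpina1b: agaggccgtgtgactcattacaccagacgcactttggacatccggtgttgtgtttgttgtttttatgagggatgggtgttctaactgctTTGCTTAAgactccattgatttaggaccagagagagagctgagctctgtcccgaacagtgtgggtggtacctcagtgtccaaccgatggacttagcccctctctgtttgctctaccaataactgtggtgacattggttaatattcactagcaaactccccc

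The Kng2 window held a C/EBP motif on the minus strand 112 bases before the start. In the Agt window a STAT motif began 172 bases and a TATA motif 30 bases before the start. Serpina3g had a STAT motif 33 bases before the start, and Serpina1b had a C/EBP motif 161 bases before it. A promoter was found for 6 of the 10 genes (Cp with 2 starts, Kng2, Agt, Serpina3g, Serpina3n and Serpina1b), and the C/EBP motif was present in 3, the STAT motif in 2 and the TATA motif in 2 of these 6. Over all 32851 mouse promoters of the same length the shares were 9.56%, 7.02% and 12.4%. None of the 3 motifs was found before Serpina3n or before Adipoq. In the second Cp window the 2 TATA matches, on opposite strands, overlap each other. A match describes the letters only.

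Of the heme and metal carriers, Hp and Trf were far higher in AD-like cells than in the other named mesenchymal classes, and Cp less so. Hp, whose product binds free hemoglobin, stood in AD-like cells at 4130 (95% Poisson interval 4028 to 4233), 7290 (7227 to 7353), 8934 (8796 to 9074) and 6741 (6715 to 6767) CPM, in the order of age. The named mesenchymal class next in order was 23.2, 25.8, 51.8 and 4.23 times lower in the 4 libraries. The 735, 766, 520 and 820 cells of clusters that met no naming rule are outside these classes, and in them Hp stood at 561.5, 537.6, 533.5 and 773.5 CPM, 7.35, 13.6, 16.7 and 8.71 times below AD-like cells. No other named class of any library reached the AD-like level. Outside the mesenchyme Hp was also high in neutrophil-like cells, at 1783, 593.9, 1780 and 2507 CPM. In the 1-month library, where neutrophil-like cells were many and AD-like cells few, 52.6% of the 92346 Hp UMIs lay in neutrophil-like cells, 18.4% in granulocyte progenitor-like cells and 6.76% in AD-like cells, whereas AD-like cells held 80.6%, 51.9% and 91.2% at 1.5, 3 and 16 months. The neutrophil granule genes Lcn2 and Elane stood at 751.9 and 274.4 CPM in 1-month AD-like cells, against 7.853 and 6.854 CPM at 1.5 months. They were at 524.3 to 821.7 and 210.5 to 247.0 CPM in the other mesenchymal classes at 1 month, and their part in the Hp level was not tested. With the neutrophil-like level subtracted, the 1-month Hp level was 2347 CPM, which is 1.76 times lower. Hp was itself high in neutrophil-like cells, so this subtraction cannot give the part of RNA from other cells. The other named mesenchymal classes, with Lcn2 and Elane at the levels above, held 93.57 to 178.3 CPM of Hp at 1 month.

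Trf, the carrier of iron in plasma, stood at 806.8, 2271, 1402 and 1341 CPM in AD-like cells at 1, 1.5, 3 and 16 months. These were 45.4, 34.0, 24.7 and 3.69 times the next named mesenchymal class and 10.4, 11.8, 14.3 and 5.27 times the unnamed cells. Among all classes, macrophage-like cells came next in the younger libraries, at 539.4, 1151 and 1041 CPM, with intervals that did not overlap those of AD-like cells. Trf was spread unevenly over the AD-like cells. After each cell was thinned to 3000 UMIs, 53.3%, 64.0%, 59.9% and 67.3% of AD-like cells had a Trf UMI, whereas 91.1%, 99.9%, 98.5% and 98.2% would have had one if each cell held Trf at the level of the class. At 1.5 months the 10th, 50th and 90th percentiles over cells were 0, 1791 and 5857 CPM, and 30.4% of AD-like cells had no Trf UMI at their full depth. Serpina3g fell short of an even spread too, with shares of 53.3%, 70.4%, 69.1% and 49.7% against 71.2%, 86.5%, 83.0% and 62.6%. Hp was found in 99.7% to 100% of the thinned AD-like cells of every library. In CH-like cells of the same libraries, thinned likewise, 3.45% to 14.2% had a Trf UMI and 17.1% to 32.2% an Hp UMI.

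Cp, the copper-bearing ferroxidase of plasma, was the metal carrier that AD-like cells shared most with other cells. It stood at 331.3, 420.2, 480.0 and 812.3 CPM in AD-like cells, which was 8.31, 7.51, 2.38 and 1.16 times the next mesenchymal class. That class was LMP-like at 1 and 1.5 months, OB-like at 3 months with 201.6 CPM, and EMP-like at 16 months with 699.7 CPM. Over all unnamed cells Cp stood at 197.9, 285.0, 383.7 and 686.6 CPM, and some of their clusters held as much Cp as AD-like cells or more. Those led by Kcnk2, Limch1 and Spp1 had 327.4 (309.1 to 346.6), 397.5 (379.1 to 416.5) and 713.7 (673.5 to 755.8) CPM at 1, 1.5 and 3 months, and the cluster led by Spp1, Mmp13 and Dmp1 had 954.5 (927.7 to 982.0) CPM at 16 months. Their intervals overlapped those of AD-like cells at 1 and 1.5 months and lay above them at 3 and 16 months.

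Kininogens and angiotensinogen, the peptide precursors, were the steadiest of the 10 genes between libraries. Kng1 stood at 400.1 (368.8 to 433.3), 539.3 (522.2 to 556.8), 564.5 (530.2 to 600.5) and 468.1 (461.3 to 475.1) CPM in AD-like cells of 1, 1.5, 3 and 16 months. Kng2 stood at 468.2, 548.0, 453.1 and 572.5 CPM. The highest library was 1.41 times the lowest for Kng1, 1.26 times for Kng2 and 1.46 times for Agt, beside a median of 1.78 over 6477 genes measured in AD-like cells. In the younger libraries the next named mesenchymal class was 32.3 to 157 times lower for Kng1 and 26.7 to 77.6 times lower for Kng2, and the unnamed cells were 8.37 to 10.1 and 8.80 to 12.7 times lower. At 16 months the gaps were 3.18 (interval of the ratio 2.77 to 3.68) and 2.66 (2.37 to 2.99), both to EMP-like cells.

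Both kininogens were found in most AD-like cells. Among cells thinned to 3000 UMIs, Kng1 was present in 64.5%, 73.4%, 77.2% and 70.9% and Kng2 in 69.5%, 76.2%, 70.2% and 77.9% of AD-like cells. In neutrophil-like cells, which should lack both, the Kng1 shares were 0.475%, 5.43%, 0.465% and 8.15%. Median depths before thinning were 11910, 7466, 6129 and 5885 UMIs in neutrophil-like cells, and 58 and 67 AD-like cells under 3000 UMIs were left out at 3 and 16 months, none at 1 and 1.5 months. Without thinning 83.0% to 93.3% of AD-like cells had a Kng1 UMI. Both kininogens were found together in 48.2%, 56.9%, 55.4% and 56.8% of AD-like cells, close to the 44.8%, 56.0%, 54.2% and 55.2% given by the product of their shares.

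Agt, the precursor of angiotensin, stood at 894.7, 1061, 726.9 and 778.0 CPM in AD-like cells, and 85.0% to 92.6% of the thinned cells had a UMI. Ocy-like cells were next among mesenchymal cells in the younger libraries, at 100.7, 128.4 and 125.2 CPM, a gap of 8.88, 8.27 and 5.80 times, and the unnamed cells were 9.44, 6.79 and 8.19 times lower. At 16 months Ocy-like cells held 155.7 CPM of Agt, and EMP-like cells, with 203.1 CPM, were next. Kng1 in Ocy-like cells was at 1.503, 16.71, 0 and 27.74 CPM. Mural-like cells, few in each library (21 to 64), held Agt at 162.7, 151.2, 87.77 and 284.5 CPM.

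Few other genes of the renin-angiotensin and kinin systems reached 20 CPM in the same cells, 4 or 5 of 22 in a library. For this and the lists that follow, osteoclast-like, B-like, T or NK-like, basophil-like and unnamed cells were not compared. Of the 11 genes tested none was at least 2-fold above every other named mesenchymal class in every library, as were 1.55% of 8324 genes. Ren1, the enzyme that cuts angiotensinogen, had 0, 1, 0 and 0 UMIs in AD-like cells, and the kinin receptors Bdkrb1 and Bdkrb2 together with Klkb1, the kallikrein of plasma, stayed under 8 CPM in every class described. Mme, a membrane peptidase that cleaves kinins and angiotensins, stood at 245.3, 271.3, 268.8 and 330.0 CPM in AD-like cells. Ace, the angiotensin-converting enzyme, was highest in EMP-like cells at 40.48, 66.92, 39.73 and 30.17 CPM. The angiotensin receptor gene Agtr1a and the aminopeptidase gene Enpep were highest in mural-like cells at 1.5 months, at 85.38 and 75.62 CPM.

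Iron-handling genes that meet these carriers lay partly in other cells. Tfrc, the transferrin receptor, was highest in erythroid-like cells at 243.0, 131.2, 178.5 and 245.0 CPM and stood at 8.597, 3.712, 3.360 and 5.304 CPM in AD-like cells. The haptoglobin-hemoglobin receptor gene Cd163 was highest in macrophage-like cells at 3 months, at 78.29 CPM, and had at most 7 UMIs in AD-like cells of a library. Of the 11 iron genes tested, only Heph, a ferroxidase related to ceruloplasmin, was at least 2-fold above every other named mesenchymal class in every library. Its AD-like levels were 41.00, 57.83, 45.36 and 58.23 CPM, and 1.55% of 8324 genes met the same call.

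The 3 serpins did not share a pattern. Serpina3g, an intracellular cathepsin inhibitor, was an AD-like gene at 414.6, 666.8, 590.8 and 327.6 CPM, which was 60.4, 36.6, 91.9 and 3.51 times the next named mesenchymal class and 7.45, 6.58, 11 and 7.29 times the unnamed cells. Serpina3n, a secreted inhibitor of serine proteases, was spread over AD-like, EMP-like and CH-like cells and was the gene that varied most in AD-like cells between libraries, with 2.645 (0.7207 to 6.773), 36.70 (32.35 to 41.47), 113.1 (98.07 to 129.9) and 295.6 (290.1 to 301.1) CPM in AD-like cells. The thinned share of AD-like cells with a UMI was 1.02%, 8.82%, 24.0% and 52.6% in the same order. Neutrophil-like cells had 0%, 8.53%, 0.233% and 5.58%, so at 1.5 months the AD-like share was not above theirs. At 1.5 months LMP-like, OB-like and endothelial-like cells had 0.607%, 0.567% and 3.12%, and CH-like and EMP-like cells 8.65% and 24.3%. The part of free RNA in these shares was not tested. With 0 of 1894 neutrophil-like cells at 1 month, a share of up to 0.195% is allowed by the exact interval. EMP-like cells held 9.943, 122.9, 27.81 and 192.8 CPM of Serpina3n. They were above AD-like cells at 1 and 1.5 months and below them at 3 and 16 months, and CH-like cells held 5.048, 34.06, 26.44 and 25.87 CPM.

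Serpina1b, one of the mouse copies of alpha-1-antitrypsin, the main inhibitor of neutrophil elastase in plasma, was a chondrocyte gene in these data. CH-like cells held 84.65, 55.43, 471.2 and 6653 CPM at 1, 1.5, 3 and 16 months, and AD-like cells 1.984, 2.856, 5.040 and 1.794 CPM. CH-like cells contained 87.3%, 94.1%, 94.9% and 97.5% of all Serpina1b UMIs of their library. The 16-month level was 78.6 (72.6 to 85.2), 120 (114 to 126) and 14.1 (13.6 to 14.7) times that of the 1, 1.5 and 3-month libraries. Only 117 CH-like cells were present at 16 months, against 579, 1988 and 895. A Serpina1b UMI was found in 93.2% of them, against 17.1%, 15.7% and 46.4%, and in 84.1% (76.0% to 90.3%) against 10.2%, 5.94% and 31.3% after thinning. The 10 cells with the most UMIs held 37.3% of the 16-month total, and without the 10 highest cells of each library the levels were 45.69, 31.51, 314.8 and 4694 CPM.

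The CH-like cells were not the same mixture at each age. At 16 months they formed a subcluster of 62 cells led by Col10a1, the collagen of hypertrophic cartilage, and one of 55 cells led by Acan, which had 7190 and 6313 CPM of Serpina1b. In the younger libraries the Col10a1-led cells had 108.0, 14.41 and 237.9 CPM. Within these cells alone, the 16-month level was 66.6, 499 and 30.2 times that of 1, 1.5 and 3 months. Of the other CH-like subclusters of the younger libraries, those led by Sfrp5 had 93.78, 155.6 and 931.6 CPM. Those led by the proliferation gene Top2a had 39.24, 95.19 and 1192 CPM. The 4, 5 and 4 CH-like subclusters of these libraries ranged from 39.24 to 113.9, 14.41 to 155.6 and 201.9 to 1192 CPM. All were below both 16-month subclusters. The paralogs in the same cluster of genes were higher at 16 months as well. Serpina1a stood at 41.55, 31.42, 921.6 and 9732 CPM in CH-like cells, Serpina1d at 46.21, 33.16, 648.9 and 4968 CPM and Serpina1c at 6.601, 1.775, 43.53 and 2533 CPM. The Serpina1b gene model overlaps that of Serpina1d, so the copies are not separate measurements.

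**Figure D1:**
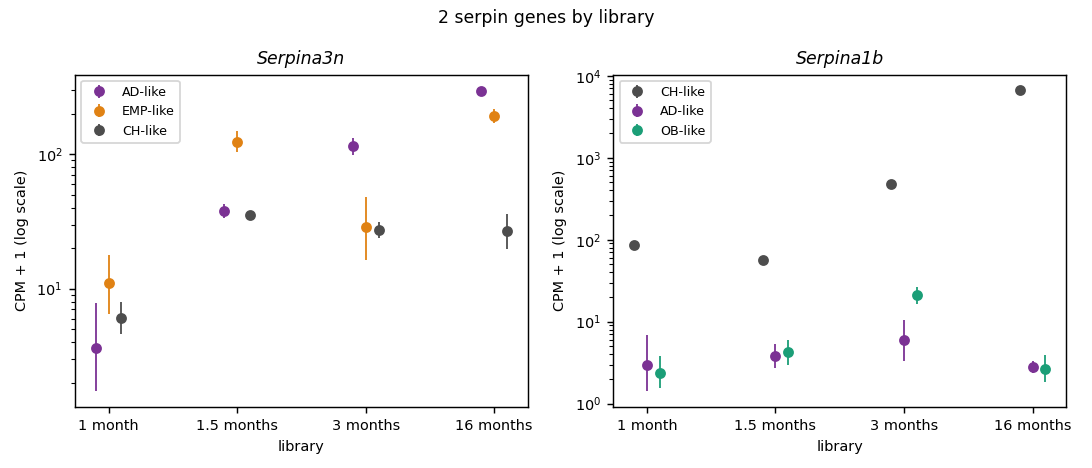
Level of Serpina3n (left) and Serpina1b (right) by library on a log axis of CPM + 1, with points for cell classes and bars for 95% Poisson intervals. Serpina3n changed order between AD-like and EMP-like cells, and Serpina1b in CH-like cells reached 6653 CPM at 16 months while AD-like cells stayed at or under 5.040 CPM.

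The genes of proteases that serpins of these families are known to bind lay in several cell types. In AD-like cells none of the 7 tested was at least 2-fold above every other named mesenchymal class in every library, as were 1.55% of 8324 genes. Elane, neutrophil elastase, was at 15748 CPM at 1 month, 12837 CPM at 3 months and 3519 CPM at 16 months in granulocyte progenitor-like cells. Prtn3 and Ctsg were highest in the same cells of these 3 libraries. Elane, Prtn3 and Ctsg were among the markers that named those cells. Ctsl, a cathepsin, stood at 634.8, 930.4, 929.7 and 1153 CPM in AD-like cells, the highest class at 1 month, and at 456.6, 1104, 1083 and 2619 CPM in endothelial-like cells. Ctsb was highest in macrophage-like cells of the younger libraries, at 2407, 3676 and 3518 CPM.

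Orm1, an acute-phase carrier of small molecules, was a neutrophil gene in these libraries. Neutrophil-like cells held 210.9, 34.23, 247.4 and 141.9 CPM, and granulocyte progenitor-like cells 129.4 CPM at 16 months, where the intervals overlapped. AD-like cells held 10.58, 4.426, 3.360 and 2.401 CPM, and 0.656% to 2.54% of them had an Orm1 UMI after thinning. The highest of these, at 1 month, lay in the library with the most neutrophil-like cells. Whether this is RNA from other cells was not tested.

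**Figure D2:**
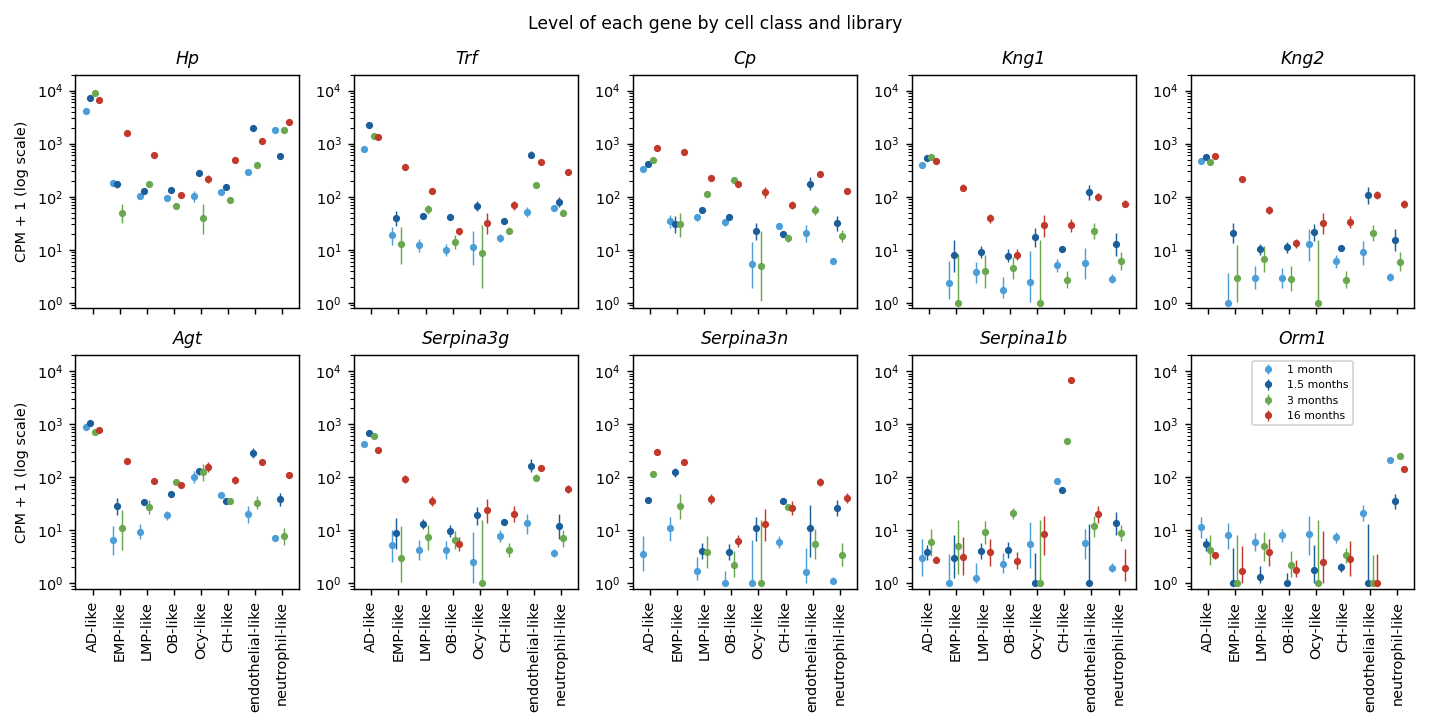
Level of the 10 genes in 8 cell classes, 1 panel per gene, as CPM + 1 on a log axis with 95% Poisson intervals and 1 colour per library. Hp, Trf, Kng1, Kng2, Agt and Serpina3g were highest in AD-like cells in all 4 libraries, Serpina1b in CH-like cells and Orm1 in neutrophil-like cells.

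A call was made where a gene with at least 20 CPM in a mesenchymal class was at least 2-fold higher in AD-like cells than in every other named mesenchymal class, in every library. It was met by 6 of the genes, Hp, Trf, Kng1, Kng2, Agt and Serpina3g, of the 9 that reached 20 CPM, and 1.55% of 8324 genes did (129 genes). The genes were chosen on such levels, so nothing is read from this difference. Ordered by their lowest ratio, the 6 took places 15 to 63 of the 129. The level of the 6 genes in other classes was set beside that of the AD-like markers. At 16 months EMP-like cells held 23.6% to 37.7% of the AD-like level of the 6 genes and 39.2%, 43.2% and 73.6% of the level of Adipoq, Cxcl12 and Lepr, 3 genes that define AD-like cells. In LMP-like cells of that library the values were 8.26% to 10.8% and 6.47% to 10.7%. Neutrophil-like cells held 12.7% to 37.2%, the highest being Hp, and 13.3% to 14.6% of the markers. At 1 and 3 months EMP-like cells held at most 4.32% of the 6 genes, and at 1.5 months the 32 endothelial-like cells held 19.1% to 27.4%, beside 21.4% to 39.3% of the markers. The unnamed cells held 5.97% to 19.0% of the 6 genes over the libraries. The part of carried-over AD-like RNA in these values was not tested.

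**Figure D3:**
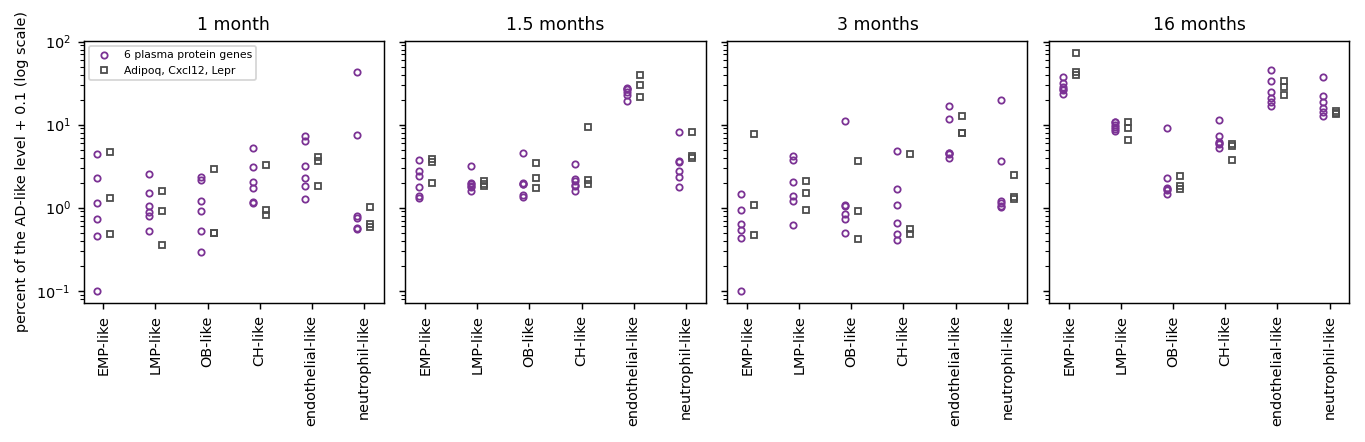
Level in 6 cell classes as a percent of the AD-like level of the same library (log axis, 0.1 added), 1 panel per library, for Hp, Trf, Kng1, Kng2, Agt and Serpina3g (circles) and for Adipoq, Cxcl12 and Lepr (squares). At 16 months EMP-like cells lay at 23.6% to 37.7% for the circles and 39.2% to 73.6% for the squares.

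At 16 months 1 of the 8 genes with at least 20 CPM in AD-like cells was at least 2-fold above the highest younger library, as were 6.2% of 6500 genes, and none was at least 2-fold below the lowest, as were 2.75%. That gene was Serpina3n, 2.61 times the 3-month level (log2 1.39). Cp was 1.69 times the highest younger level, and Serpina3g was below the lowest, by 0.34 on the log2 scale (log2 -0.34). Kng2 was 1.04 times the highest younger level, and Hp, Trf, Kng1 and Agt lay within the range of the younger libraries. In CH-like cells 5 of 8 genes were at least 2-fold above the highest younger library, Hp, Cp, Kng1, Kng2 and Serpina1b, as were 11.5% of 5831 genes, and none of the 8 was 2-fold below, as were 10.2%. Of these Hp, Kng1 and Kng2 had met the AD-like call, and Cxcl12 in the same cells was at 1406 CPM at 16 months against 138.8, 499.7 and 115.3 CPM. The part of AD-like RNA in this was not tested.

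Within AD-like cells at 16 months 7 subclusters of 34 to 1110 cells could be compared. A subcluster led by immunoglobulin genes was among them, and without it the class held 3574 cells. Whether it holds doublets or carried-over RNA was not tested. Kng1, Kng2, Agt and Cp differed little among the 7 subclusters, the highest being 1.32, 1.21, 1.28 and 1.23 times the lowest. Serpina3g differed most, by 4.70 times. The 34 cells led by the interferon-induced genes Cxcl9, Cxcl10 and Iigp1 had 1060 CPM of Serpina3g (958.0 to 1170) and 11724 CPM of Hp, against class levels of 327.6 and 6741 CPM. The 54 cells led by Fabp4, Kit and Mrap, with the lipid droplet gene Plin2 among their leading genes, had the most Trf, 3047 CPM (2893 to 3207), and the least Serpina3g, 225.4 CPM. These subclusters were made from the same cells, so their differences are a description. In the 1-month library the 2 AD-like subclusters differed by 1.86 times for Trf, 1.52 times for Cp and 1.09 to 1.28 times for Hp, Kng1, Kng2, Agt and Serpina3g. In the 1.5-month library the 2 AD-like subclusters differed by 1.05 to 1.38 times for the 7 genes Hp, Trf, Cp, Kng1, Kng2, Agt and Serpina3g.

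**Figure D4:**
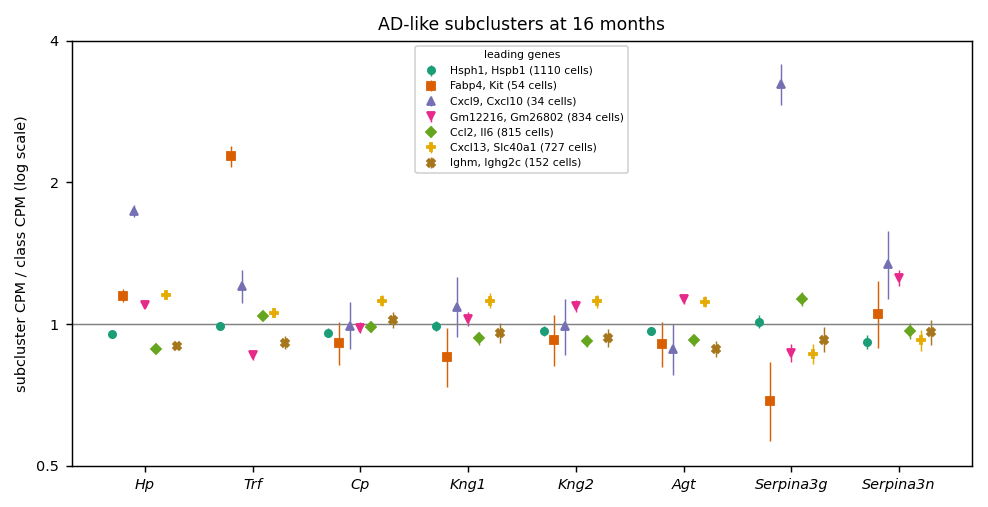
Level of 8 genes in the 7 AD-like subclusters of the 16-month library, divided by the level of the whole class (log axis, bars for 95% Poisson intervals), with subclusters named by 2 leading genes. The subcluster led by Cxcl9 and Cxcl10 stood out for Serpina3g (1060 CPM) and the one led by Fabp4 and Kit for Trf (3047 CPM).

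Position in the genome was not used to choose the genes. Kng2 and Kng1 lie on chromosome 16, at 22985854 to 23029482 on the minus strand and 23057865 to 23082078 on the plus strand (GENCODE annotation of GRCm38), 28383 bases apart and pointing away from each other. Adipoq lies 64458 bases from Kng1 on the same side as Eif4a2 and Rfc4, which lie between them. Adipoq met the 2-fold call like both kininogens. Eif4a2, at 251.9, 338.1, 292.3 and 223.6 CPM in AD-like cells, and Rfc4, under 10 CPM there, did not. Adipoq is a marker that named the AD-like class, and the kininogens were picked for their levels, so nothing is read from their calls. Each kininogen had 8 neighbours within 250 kb that reached 10 CPM, and only Adipoq and the other kininogen met the call. The serpins form a cluster on chromosome 12, with Serpina3n 164790 bases and Serpina1b 405872 bases from Serpina3g. Of 5 neighbours within 250 kb of Serpina3g that reached 10 CPM, Serpina12, Serpina3c and Serpina3f met the call, and Serpina3m and Serpina3n did not. Over all genes, 1.55% of 8324 met it. In AD-like cells Serpina12 stood at 50.26, 132.4, 345.5 and 208.8 CPM and Serpina3c at 43.64, 126.4, 110.9 and 114.9 CPM. Serpina3f stood at 106.5, 232.5, 161.3 and 194.2 CPM. How reads shared by these copies were counted is not given. On the far side of Serpina12 the Serpina1 copies were CH-like genes. For Hp, Trf, Cp, Agt and Orm1, 3 to 6 neighbours within 250 kb reached 10 CPM and none met the call.

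**Figure D5:**
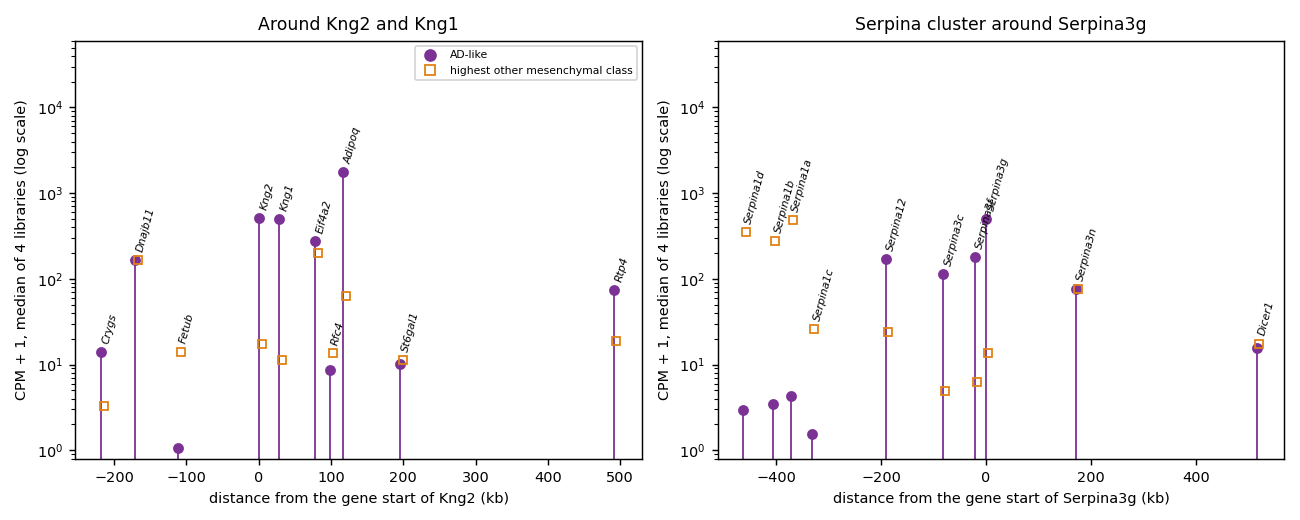
Median CPM + 1 over the 4 libraries (log axis) of genes around Kng2 (left) and Serpina3g (right) by distance from the gene start in kb, in AD-like cells (filled circles) and in the highest other mesenchymal class (open squares). Adipoq, Kng1 and Kng2 stood above the other classes on the left, as did Crygs, Rtp4 and Eif4a2 by smaller ratios. On the right the Serpina1 genes were higher in another class.

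The genes whose levels were most like each gene over 44 points, a point being a class of at least 50 cells in a library, were taken from 6809 genes (Pearson r of log2(CPM + 1)). Points of a library share its depth and free RNA, so r is a description. The nearest genes depended on the setting. With points of at least 20 cells, Hp, Cp, Kng1, Kng2, Agt and Serpina3g kept 1 of their 3 nearest genes. Trf, Serpina3n, Serpina1b and Orm1 kept 2. With Spearman rho each gene kept 1 to 3. Kng1 was most like Gdpd2 (r = 0.974), Kng2 (0.968) and Cxcl12 (0.959), and Kng2 was most like Kng1, Adipoq (0.967) and Cxcl12 (0.966). Trf came nearest to Cebpa (0.881), Il1rn (0.864) and Serpina3g (0.852), and Serpina3g to Serpina3f (0.917), Kng1 (0.873) and Wdr86 (0.869). For Agt the nearest were Zfp618 (0.912), Marc1 (0.909) and Sfrp1 (0.901), and Cp came near to Cdh11 (0.931) and S1pr3 (0.925). Serpina3n was nearest to C4b (0.927), Efemp1 (0.902) and Il1r1 (0.875), Serpina1b to Serpina1d (0.942), Serpina1a (0.922) and Cytl1 (0.881), Orm1 to B230208H11Rik (0.942), Itgb2l (0.935) and Ly75 (0.935), and Hp to Clk4 (0.885), Umad1 (0.819) and H2-Q10 (0.798).

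Most other plasma protein genes were at 0 or under 20 CPM in AD-like cells. Of 76 such genes 74 were listed, 7 to 9 of them reached 20 CPM in AD-like cells of a library, and 49, 35, 41 and 27 had 0 UMIs there. Those with at least 50 CPM in 2 or more libraries were Rbp4, Serpina3c, Serpina3f, Serpina12, Serpinf1, Serping1, Lcn2 and Lbp. Of 17 tested only Serpina3c, Serpina3f and Serpina12 met the 2-fold call, as did 1.55% of 8324 genes. Serping1, the inhibitor of complement C1, stood at 2071, 3776, 3831 and 1959 CPM, and Lbp, the binder of bacterial lipopolysaccharide, at 380.2, 466.6, 458.1 and 379.0 CPM. Rbp4, the carrier of retinol, stood at 265.2, 62.68, 25.20 and 14.25 CPM. Lcn2, the neutrophil granule gene described above, stood at 751.9, 7.853, 50.4 and 10.87 CPM. Its 1-month level was of the same order in the other mesenchymal classes. Alb had 0 UMIs in AD-like cells of all 4 libraries. The 14 hepatocyte markers together made 11.24, 7.425, 8.961 and 3.457 CPM in AD-like cells, with 11, 8, 10 and 9 of the 14 at 0 UMIs.

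Regulators of the acute-phase response were present in AD-like cells to different extents. Cebpa, a C/EBP factor of liver and fat, was the only regulator of 14 tested that met the 2-fold call, as did 1.55% of 8324 genes. It stood at 187.1, 336.8, 263.8 and 320.0 CPM. Cebpa was among the markers that named the AD-like class, so nothing is read from its call. Cebpb stood at 1460, 3557, 2325 and 1445 CPM, Socs3, a target and inhibitor of Stat3, at 475.5, 979.4, 840.6 and 1143 CPM, and Stat3 at 184.5, 203.5, 191.0 and 284.1 CPM. Il6 itself was at 39.02, 136.8, 85.69 and 89.40 CPM, with the receptor subunit Il6ra at 5.290, 3.712, 6.160 and 4.116 CPM and Il6st at 111.1, 96.38, 135.5 and 212.9 CPM. The liver factor Hnf4a had at most 1 UMI in AD-like cells of any library. Foxa3, another liver factor, was seen in CH-like cells at 35.98, 66.69, 83.91 and 85.00 CPM.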

How the data were processed

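Counts of UMIs per gene and cell were deposited by the authors for each of the 4 libraries. Per the labels, they were made with Cell Ranger 3.0.2 on mm10, and Seurat 2 was used downstream. The libraries held 108227184, 63258961, 32672631 and 93269331 UMIs at 1, 1.5, 3 and 16 months, with a median of 10280, 9621, 6264 and 9670 UMIs per kept cell. No cell annotation was used.

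A cell was retained if it had between 200 and 6000 genes and no more than 5% of its UMIs from mitochondria. Doublets were treated only by that upper gene limit. Counts were scaled to 10000 UMIs, with UMI number and mitochondrial percent regressed out and the 1 and 1.5-month libraries aligned by canonical correlation. Cells were clustered with Seurat 5.3.0 (R 4.3.3) on 30 components at a resolution of 0.8. The genes used were 2000 variable genes less the 10 genes, their neighbours within 250 kb, the gene lists and the naming markers. Clusters were named from at least 3 markers, a rule adjusted after cluster names and leading genes were seen. UMIs were summed per class and library and divided by the class total (CPM), with exact Poisson intervals for levels, exact conditional binomial intervals for ratios and Clopper-Pearson intervals for shares, all at 95%. For shares, each cell was thinned to 3000 UMIs. Differences between ages were not tested, since each age is 1 library, and differences between classes were not, since the genes were chosen on them. A call was a 2-fold difference with at least 20 CPM. Neighbouring genes were those within 250 kb, named at 10 CPM or more, and likeness used points of at least 50 cells and genes reaching 50 CPM. Other plasma protein genes were named at 50 CPM in AD-like cells of at least 2 libraries, and genes of the other lists at 20 CPM in the classes described or as absent defining genes. Python 3.11.15 with numpy 2.4.6, scipy 1.17.1, pandas 2.3.3, scanpy 1.11.5 (Scrublet) and matplotlib 3.10.9 was used, and the calls were tested on simulated data. The genes and lists were chosen with earlier results of these data known. Other settings were tried, 5 of them chosen after the data were seen, and the closing section gives their effect. Some genes that the naming rule covers are not reported here.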

Additional observations from a re-analysis of the deposited data

Results flagged for a closer look

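The ratio of Serpina3n in AD-like cells to that in EMP-like cells lay on opposite sides of 1 in the libraries. It was 0.266 (0.0638 to 0.847) at 1 month and 0.299 (0.240 to 0.373) at 1.5 months, and 4.07 (2.37 to 7.57) at 3 months and 1.53 (1.36 to 1.74) at 16 months. Each age is 1 library, and the difference between libraries was not tested. With other settings the ratio to the next mesenchymal class was 0.113 at 1.5 months (neutrophil-like level subtracted) and 2.10 at 3 months (resolution 1.2). At resolution 0.5 no 16-month cell was EMP-like, so the 16-month ratio of 3.88 was to another class. The 1-month value rests on 4 Serpina3n UMIs in AD-like cells. No group has enough libraries to look for a library that stands apart.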

How the results depend on the processing

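No paired analysis was possible because each age is 1 library and no replicate number is shared between ages. The 6 genes that met the 2-fold call in AD-like cells met it in every clustering and counting setting run, and Cp joined them at resolution 0.5 and without EMP-like cells (added after the data were seen). At a fold of 3, Kng2 was lost. Over all genes, 129 met the call, against 226 at resolution 0.5, 256 at a fold of 1.5, 45 at a fold of 3 and 379 without EMP-like cells. At 16 months the count of genes raised in AD-like cells, 1 (Serpina3n), was 2 at a fold of 1.5 (with Cp) and 0 at a fold of 3. Of 312 recomputed levels of the 6 genes, 2 moved by over 1.5-fold, the greatest being Hp at 1 month with the neutrophil-like level subtracted. Hp was itself high in neutrophil-like cells, so for Hp that subtraction cannot give the part of RNA from other cells. Ratios to the next class moved by over 1.5-fold in 68 of 305 cases, up to 20.5-fold for Serpina3g at 3 months (91.9 to 1886) with that subtraction. At resolution 0.5 no 16-month cell was EMP-like, so the next class was another one, and the 16-month ratios were 8.35 for Hp, 9.71 for Kng1 and 7.88 for Serpina3g. Without EMP-like cells they were 11.3, 12.1 and 9.25. The AD-like class held 180 to 327 cells at 1 month and 2145 to 4347 at 16 months over the settings. The other causes were not tested. Depth limits the genes near 0 in AD-like cells, Serpina1b and Orm1.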
